A study of Homo sapiens with 38 samples.

Results

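LIN28A (chr1:26737308-26756219), LIN28B (chr6:105384491-105531207), IGF2BP1 (chr17:47074747-47133507), IGF2BP2 (chr3:185360918-185542830), IGF2BP3 (chr7:23349828-23510110), HMGA1 (chr6:34204650-34214008) and HMGA2 (chr12:66218240-66360071, all GRCh37) are 7 genes tied to the let-7 pathway with known roles in embryonic growth, of which LIN28A, LIN28B, IGF2BP1, IGF2BP3 and HMGA2 are low in most adult tissues. They were taken by their symbols from 52360 genes listed in the gene counts of human neuroblastoma cell lines. The counts came from 38 files, which made 27 libraries. BE2C cells, a MYCN-amplified line, were exposed to 2.5 µM GSK-J4, a cell-permeable inhibitor of the H3K27 demethylases of the KDM6 family, for 0, 24 or 48 h (2 libraries at each time). BE2C cells were also transfected for 72 h with a non-targeting siRNA (siCtrl, 2 libraries) or with 1 of 3 siRNAs against KDM6B, named N1, N2 and N33 (1 library each, summed from 2 files that the labels do not name as runs or as replicates). CHLA15, CHLA20, NB1643 and NB1691 cells were left untreated or given palbociclib, a CDK4/6 inhibitor, for 72 h, with 2 libraries in each of the 8 groups. The palbociclib dose was 300 nM in the CHLA lines and 3 µM in the NB lines. CHLA15 and CHLA20 are known as lines from the same patient and are not independent tumors, no vehicle series was given for 24 or 48 h of GSK-J4, and no label says whether libraries of a group came from separate cultures, so p-values measure only the spread between these libraries.

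The let-7 microRNAs are short RNAs that pair through a seed at their 5′ end with messenger RNAs and lower their translation and stability. LIN28A and LIN28B bind let-7 precursors and block their maturation, and both LIN28 messages are themselves let-7 targets. IGF2BP1, IGF2BP2 and IGF2BP3 encode RNA-binding proteins that stabilize client messages, and HMGA1 and HMGA2 encode small chromatin proteins that bind AT-rich DNA; all of these also carry let-7 sites. LIN28B is known in neuroblastoma as a gene that keeps let-7 low and MYCN high. MYCN, also a let-7 target, is given beside the 7 genes below.

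The let-7 family is shown first because its seed links the 7 genes. The 9 mature sequences below were taken from RefSeq, with the seed (bases 2 to 8) in capitals, and all of them share that seed.
let-7a-5p: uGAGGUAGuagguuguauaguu
let-7b-5p: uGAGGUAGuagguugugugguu
let-7c-5p: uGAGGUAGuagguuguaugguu
let-7d-5p: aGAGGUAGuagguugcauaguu
let-7e-5p: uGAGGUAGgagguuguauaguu
let-7f-5p: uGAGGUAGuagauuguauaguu
let-7g-5p: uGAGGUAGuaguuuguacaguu
let-7i-5p: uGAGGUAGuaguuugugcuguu
miR-98-5p: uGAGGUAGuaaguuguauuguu

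The complement of the seed, CTACCTC, was searched on the sense strand of the 3′ untranslated region (UTR) of 1 annotated transcript per gene (GRCh37, Gencode release 44). LIN28B, IGF2BP1 and HMGA2 held 4 matches each, and LIN28A, IGF2BP2, IGF2BP3 and HMGA1 held 1 each. Of 18922 genes with such a region, 9.72% held at least 1 match and 0.0634%, or 12 genes, held at least 4. Long regions hold more matches by their length: among genes with a 3′ UTR within 20% of its length, 0.199% had as many matches as LIN28B, 0.543% as many as IGF2BP1 and 0.0921% as many as HMGA2, against 8.5% to 16% for the 4 genes with a single match. A match is a description of letters and not a measured site, and mature let-7 was not measured in these libraries. The first match of each gene is shown, with the match in capitals, because it is what the genes have in common.
LIN28A, chr1:26753832-26753861 (+): ttggagtgcacagcctattgaaCTACCTCa
LIN28B, chr6:105526680-105526709 (+): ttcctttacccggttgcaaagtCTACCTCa
IGF2BP1, chr17:47128416-47128445 (+): gcaatgctgtgtgcgaagtaaaCTACCTCa
IGF2BP2, chr3:185362008-185362037 (-): cgagaaaaacacacagaagaagCTACCTCa
IGF2BP3, chr7:23351414-23351443 (-): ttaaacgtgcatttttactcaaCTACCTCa
HMGA1, chr6:34213599-34213628 (+): ccatttttcctctgttcacaaaCTACCTCt
HMGA2, chr12:66357073-66357100 (+): ggggcgccaacgttcgatttCTACCTCa

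Promoter windows from 250 bases before to 50 bases after a start (RefSeq, GRCh38.p14) were at hand for LIN28B, IGF2BP2, IGF2BP3 and HMGA1, and were searched on both strands for the E-box CACGTG, the letters bound by MYC and MYCN, and for 4 E2F spellings (TTTGGCGC, TTTCCCGC, TTTGCCGC and TTTCGCGC). The E-box stood in 7.26% of 35116 such windows and the E2F spellings in 3.31%. IGF2BP3 held the E-box at positions -174 and -146 from its start, and LIN28B held it at position -47 from the second of its listed starts. No E2F spelling was found in the windows of these 4 genes. The stretches that hold the E-box are shown, with it in capitals, because MYCN is one of the factors named above and is followed beside the 7 genes. What binds there was not measured.
IGF2BP3, chr7:23470592-23470691 (-): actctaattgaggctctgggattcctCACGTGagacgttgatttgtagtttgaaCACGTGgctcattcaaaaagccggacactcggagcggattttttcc
LIN28B, chr6:104957007-104957106 (+): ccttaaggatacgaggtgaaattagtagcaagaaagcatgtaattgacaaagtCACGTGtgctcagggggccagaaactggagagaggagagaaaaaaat

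Library totals lay between 36186567 and 93011010 counts on genes, at which 3 counts, taken as the floor of detection, were worth at most 0.0829 CPM (TMM-normalized counts scaled to a common library size of 1000000). Each of the 12 adrenergic neuroblastoma markers was at or above 1 CPM in the control groups, except TH in NB1691. The 10 mesenchymal markers summed to 250.4 to 1418 CPM in the other control groups and to 79529 to 79737 CPM in NB1691. The 2 NB1643 controls and the 2 CHLA20 controls differed more than other replicates, with a chi-square per degree of freedom of 24.3 and 19.2 against 2.22 to 7.14 in the other palbociclib groups. Blood and endothelial markers summed to at most 4.62 CPM in every control group, and epithelial markers to at most 2.95 CPM except in NB1691, where they summed to 348 to 349 CPM (KRT18 298 and KRT8 50.2). A gene was called where its adjusted p was under 0.05 (edgeR, Benjamini-Hochberg over all genes tested in that experiment).

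LIN28B, IGF2BP1, IGF2BP3 and HMGA1 were well above the floor in all 27 libraries. LIN28A was at 0 to 5 counts in every library and was not tested in any comparison. IGF2BP2 and HMGA2 were above 10 counts only in NB1691. In BE2C they reached at most 5 counts and 1 count and were not tested there. Per kilobase of annotated exon, the BE2C level before GSK-J4 was 107 CPM for HMGA1, 55 for LIN28B, 28 for IGF2BP1 and 14 for IGF2BP3. In untreated CHLA15 the same per-kilobase levels were 197 for HMGA1, 18.5 for IGF2BP1, 10.6 for IGF2BP3 and 6.92 for LIN28B. By this measure LIN28B stood second of these 4 genes in BE2C and last in CHLA15. The length joins the exons of all annotated transcripts of a gene, so a level is understated where the transcripts present are shorter.

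The untreated lines were compared first, to ask how the 7 genes differ between neuroblastoma lines that share a tumor type. NB1691 stood apart: it had HMGA2 and IGF2BP2, which were at 0 to 10 counts in the other 3 lines, and it had the least LIN28B and HMGA1. All 6 tested genes were called in the test across the 4 lines, but 91.2% of all genes tested were called there too, so that count is close to the background. IGF2BP2 and HMGA2 passed the filter on low counts only through NB1691 and so had to differ there.

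LIN28B, the let-7 blocker, was 40.1 and 42.1 CPM in the CHLA15 controls, 33.8 and 39.2 in CHLA20, 40.9 and 42.7 in NB1643, and 11.7 and 12.7 in NB1691. NB1691 lay below every library of the other lines. In order, NB1643 (41.8 ± 1.29 CPM, SD, n = 2) and CHLA15 (41.1 ± 1.44) did not differ beyond their spread (adjusted p = 0.81), nor did CHLA15 and CHLA20 (36.5 ± 3.88, adjusted p = 0.12), although the latter pair was called without the first CHLA20 control (adjusted p = 0.013). NB1643 was above CHLA20 (log2 difference 0.19 ± 0.069, adjusted p = 0.02), a call that was lost without the second CHLA20 control (0.18) or the first NB1643 control (0.074), without the filter on low counts (0.051) and with the replicate block (0.084). NB1691 (12.2 ± 0.736) was lower than CHLA20 by a log2 difference of -1.58 ± 0.074 (SE, adjusted p = 2.7e-13). MYCN, the gene best known to work with LIN28B in this tumor, was 3175 CPM in NB1643, 86.3 in NB1691, 3.14 in CHLA20 and 2.29 in CHLA15, while MYC, chosen after its values were seen, was 701 and 685 CPM in CHLA15 and CHLA20, 69.5 in NB1691 and 0.348 in NB1643.

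HMGA1, the more widely expressed of the HMGA genes, followed the same split. It was 454 and 463 CPM in CHLA15, 439 and 506 in CHLA20, 514 and 525 in NB1643, and 175 and 178 in NB1691. NB1643 and CHLA20 did not overlap but were not called (log2 difference 0.14 ± 0.062, adjusted p = 0.06). That pair was called with limma-voom (adjusted p = 0.041), upper-quartile scaling (0.0036) and the replicate block (0.005), so it is borderline. Its log2 difference was 0.27 without the second CHLA20 control and 0.19 without the second NB1643 control. It was 0.16 without any 1 CHLA15 library or either CHLA20 palbociclib library. CHLA20 and CHLA15 overlapped and were not called (adjusted p = 0.73). NB1643 was above CHLA15, without overlap (log2 difference 0.18 ± 0.062, adjusted p = 0.016). NB1691 was below CHLA15 by a log2 difference of -1.38 ± 0.063 (adjusted p = 1.9e-13).

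HMGA2, which is let-7's classic target, was 349 and 344 CPM in the NB1691 controls. It was listed at 0 counts in the controls of CHLA20 and NB1643, and at 2 and 7 counts in those of CHLA15. On these few counts edgeR called HMGA2 lower than in CHLA15 in both CHLA20 (adjusted p = 0.034) and NB1643 (adjusted p = 0.0054). These calls lie near the floor, so no fold is given for them. NB1691 was at least 6214-fold above CHLA20 and at least 5976-fold above NB1643, taking 3 counts per library as the floor. IGF2BP2, an RNA-binding protein gene, was 224 and 236 CPM in NB1691, and 0 to 10 counts in the controls of the other lines. Its lower bound against CHLA20 was 4052-fold. Per kilobase of joined exons, the NB1691 level was 43.2 CPM for IGF2BP2 and 23 for HMGA2, beside 17.6 for IGF2BP1 and 75.8 for HMGA1. The joined exons were 15070 bases long for HMGA2, 5330 for IGF2BP2, 9631 for IGF2BP1 and 2327 for HMGA1. Which transcripts were present was not measured, so these levels give no firm order between the genes.

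IGF2BP1, whose protein shields client messages from decay, was less variable, at 178 and 179 CPM in CHLA15, 163 and 181 in CHLA20, 188 and 239.9 in NB1643, and 168 and 171 in NB1691. NB1643 was higher than CHLA15 by a log2 difference of 0.26 ± 0.078 (adjusted p = 0.0066), a call that rested on the first NB1643 control (adjusted p = 0.2 without it). CHLA15, CHLA20 and NB1691 did not differ between neighbours (adjusted p = 0.71 and 0.84), while NB1691 and CHLA15, not neighbours in that order, were called apart without either NB1643 control (adjusted p = 0.015). IGF2BP3 was 89.8 and 90.6 CPM in CHLA15, 84 and 87.5 in CHLA20, 65.9 and 71.5 in NB1643, and 65.5 and 67 in NB1691. It fell into 2 levels: CHLA15 and CHLA20 did not differ (adjusted p = 0.44), CHLA20 exceeded NB1643 (log2 difference of NB1643 minus CHLA20 -0.32 ± 0.055, adjusted p = 5e-05), and NB1643 and NB1691 did not differ (adjusted p = 0.39). That last pair was called without the first NB1643 control (adjusted p = 0.0092) and without any 1 of the 8 CHLA libraries (0.019 to 0.037).

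The background of these pairs was large except between the CHLA lines: 12.4% of genes were called for CHLA20 against CHLA15, 64.6% and 64.5% for NB1643 against CHLA15 and CHLA20, and 78.0%, 77.5% and 80.7% for NB1691 against CHLA15, CHLA20 and NB1643. In NB1691, 12 adrenergic markers summed to 862 to 955 CPM, against 4899 to 6143 in the other 3 untreated lines, and STMN2 was 93.2 CPM. FN1 (fibronectin) was 61799 CPM and COL1A1 14699 CPM there, while COL1A2 was 1.69 CPM and PRRX1 1.87 CPM. The part of these marker levels in the values above was not tested. In bulk RNA, fewer cells of a type and less RNA per cell cannot be told apart.

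Across the 8 palbociclib groups (4 lines, treated or not, so that points share lines), the genes whose mean log2 CPM most resembled LIN28B among 15088 genes were C19orf48 (Pearson r = 0.9963), SP4 (0.9955) and MLLT10 (0.9951). For HMGA1 they were NTHL1 (0.9966), TKT (0.9964) and LDHB (0.9961). For IGF2BP1 they were FOPNL (0.9706), GOLGA6L9 (0.9623) and SF3B1 (0.9613), and those for IGF2BP3 included METTL16 (0.9883) and NELFB (0.9874). HMGA2 was most like IL7R, TNFRSF11B and HOTAIRM1, each with r = 0.9999. IGF2BP2 was most like APOL1, SERPINB7 and CD70, each with r of at least 0.9999. Genes of these last 2 sets were near 0 in 3 lines and present in NB1691, so each r describes a single line against the others. The genes most like LIN28B and HMGA1 were likewise lowest in NB1691, as C19orf48 at 157, 149, 155 and 37.2 CPM in untreated CHLA15, CHLA20, NB1643 and NB1691.

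**Figure D1:**
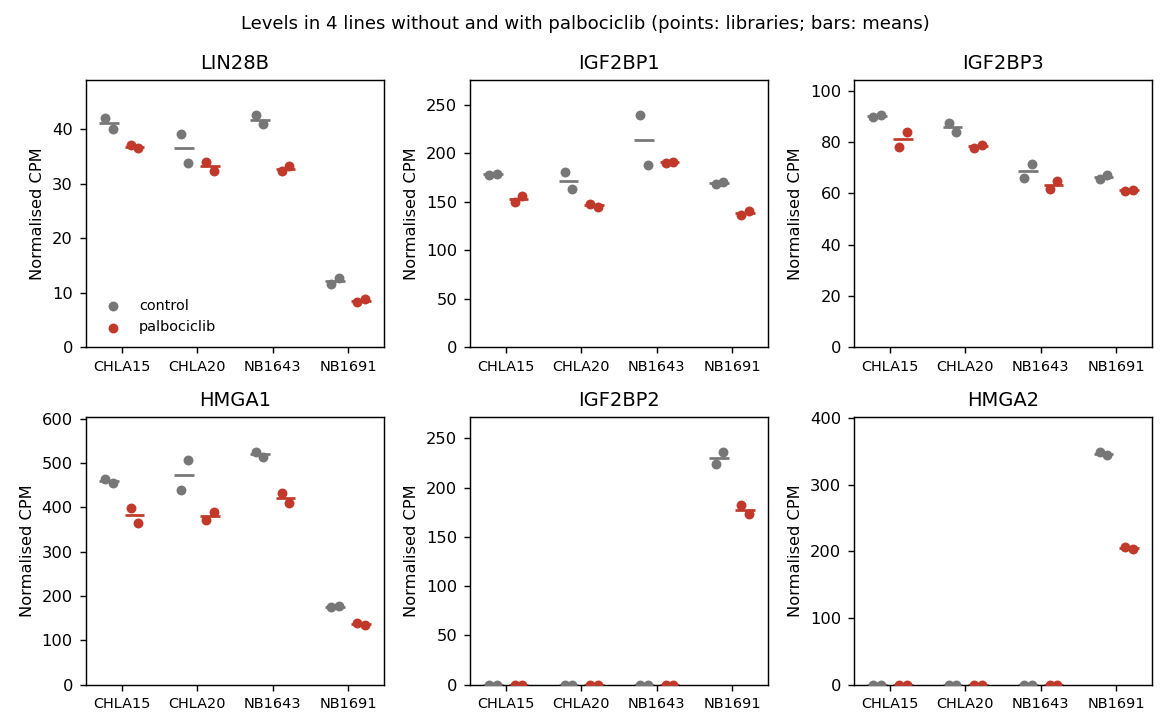
Normalized CPM (y axis, linear from 0) of 6 genes in CHLA15, CHLA20, NB1643 and NB1691, with each library as a point, controls in gray, palbociclib in red and bars at the means. HMGA2 (349 and 344 CPM in the controls) and IGF2BP2 are above 10 counts only in NB1691, where LIN28B and HMGA1 are lowest.

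Palbociclib was given to ask what follows when CDK4/6 are inhibited. The fitted change of LIN28B, IGF2BP1, IGF2BP3 and HMGA1 was negative in each of the 4 lines, and HMGA1 was called in all of them. Of the 7 genes, 3 were called lower in CHLA15 (HMGA1, IGF2BP1 and IGF2BP3), where 15.6% of all genes were, and 2 in CHLA20 (HMGA1 and IGF2BP1), where 15.9% were. In NB1643, 2 were called lower (HMGA1 and LIN28B) with a background of 19.7%, and in NB1691, 5 (all but IGF2BP3 of the 6 tested) with a background of 15.5%. In this main fit none was called higher in any line. Over the 4 genes detected in every library, the median log2 change was -0.19 in CHLA15, -0.18 in CHLA20, -0.24 in NB1643 and -0.33 in NB1691, beside medians over all tested genes of -0.00, 0.00, 0.00 and 0.02 in the same order.

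HMGA1 fell from 454 and 463 to 399.7 and 365 CPM in CHLA15 and from 439 and 506 to 372 and 389.8 in CHLA20. It fell from 525 and 514 to 433 and 409 in NB1643, and from 175 and 178 to 139 and 135 in NB1691. In each line both treated libraries lay below both controls. The log2 change was -0.26 ± 0.062 in CHLA15 (adjusted p = 0.0033), -0.31 ± 0.062 in CHLA20 (adjusted p = 0.00076), -0.30 ± 0.062 in NB1643 (adjusted p = 0.00062) and -0.37 ± 0.063 in NB1691 (adjusted p = 0.00016). The CHLA15 call was lost without its second palbociclib library (adjusted p = 0.058). The change did not differ between lines (adjusted p = 0.78, test with 3 degrees of freedom).

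LIN28B went from 42.7 and 40.9 to 32.3 and 33.2 CPM in NB1643 and from 11.7 and 12.7 to 8.34 and 8.8 in NB1691, without overlap. The fall was -0.35 ± 0.07 on the log2 scale in NB1643 (adjusted p = 0.00045) and -0.51 ± 0.082 in NB1691 (adjusted p = 8.6e-05). In CHLA15 the values were 42.1 and 40.1 untreated and 37.2 and 36.5 treated (log2 difference -0.16 ± 0.069, adjusted p = 0.096), and in CHLA20 39.2 and 33.8 untreated and 34.1 and 32.3 treated (-0.14 ± 0.07, adjusted p = 0.16), where the groups overlapped. The CHLA15 value was called without either CHLA20 control (adjusted p = 0.042 and 0.043), and the CHLA20 value without the second CHLA20 control (adjusted p = 0.012).

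The LIN28B change was the only one of the 6 that differed between lines in the test with 3 degrees of freedom (adjusted p = 0.024), against a background of 38.0% of genes. At matched doses no pair was called for LIN28B: the response of CHLA20 minus that of CHLA15 was 0.02 ± 0.098 (adjusted p = 1), and that of NB1691 minus that of NB1643 was -0.16 ± 0.11 (adjusted p = 0.33). Line and dose cannot be told apart between the CHLA and the NB lines. The call of 0.024 was lost without any 1 of 8 single libraries: each of the 4 CHLA15 libraries (adjusted p = 0.058 to 0.09), either palbociclib library of CHLA20 (0.097 and 0.057), the second NB1691 control (0.12) or the first NB1691 palbociclib library (0.11). IGF2BP1 was also called in this test without the first NB1643 control (adjusted p = 0.024).

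IGF2BP1 went from 178 and 179 to 150.0 and 156 CPM in CHLA15 and from 181 and 163 to 148 and 145 in CHLA20. In NB1691 it went from 168 and 171 to 136 and 141, and no group overlapped in these 3 lines. The log2 changes were -0.22 ± 0.078 (adjusted p = 0.04), -0.23 ± 0.079 (adjusted p = 0.037) and -0.29 ± 0.079 (adjusted p = 0.0088). In NB1643 the controls were 239.9 and 188 and the treated libraries 190.3 and 191, which overlap, with a log2 difference of -0.17 ± 0.078 (adjusted p = 0.099). That value became 0.02 without the first NB1643 control and -0.35 (adjusted p = 8.4e-05) without the second. The CHLA15 call was lost without any 1 library of the line (adjusted p = 0.089 to 0.24) and without either NB1643 palbociclib library, NB1691 control (0.054 for each) or CHLA20 palbociclib library (0.065 for each), the CHLA20 call without its first control (0.22) or either palbociclib library (0.1 and 0.17), and the NB1691 call without its second control (0.064) or first palbociclib library (0.078).

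IGF2BP3 was 89.8 and 90.6 CPM untreated and 78.2 and 83.9 with palbociclib in CHLA15 (-0.15 ± 0.055 log2, adjusted p = 0.04). The groups did not overlap, yet the call was lost without either CHLA15 control (adjusted p = 0.11 and 0.16), without the first palbociclib library of CHLA15 (0.33) and without either CHLA20 palbociclib library or any 1 NB1691 library (0.055 to 0.057). Its log2 differences of -0.13 in CHLA20 and -0.12 in NB1643 and NB1691 were not called (adjusted p = 0.087, 0.1 and 0.12). The CHLA20 value was called without either NB1643 control (adjusted p = 0.028 and 0.027), and the NB1643 value without its first control (0.031).

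HMGA2 in NB1691 went from 349 and 344 to 207 and 204 CPM, a log2 change of -0.75 ± 0.067 (adjusted p = 3.5e-07) and the lowest log2 change of the 7 genes with palbociclib among values above 10 counts. Of all genes tested, 6.63% had a lower log2 change in NB1691. IGF2BP2 went from 224 and 236 to 182 and 173 CPM (-0.38 ± 0.089, adjusted p = 0.0033), and its call was lost with DESeq2 (-0.37, adjusted p = 0.83) and without the second NB1691 control (-0.34, adjusted p = 0.055). HMGA2 was called in the test of the response of NB1691 against NB1643, where 22.0% of genes were called, but NB1643 held 0 and 0 counts untreated and 2 and 2 treated, so no fold is given, and the call was lost without any 1 library of NB1643 or NB1691 and without either palbociclib library of CHLA20, 10 libraries in all. No member was called for the response of CHLA20 against that of CHLA15, with a background of 2.02% of genes, of which 57% were higher (39.2% with DESeq2). MYCN moved with these falls in some lines and against them in another: its log2 change was -0.57 ± 0.1 in CHLA20 and -0.53 ± 0.052 in NB1643, and 0.27 ± 0.054 in NB1691, each called, and -0.15 ± 0.11 in CHLA15, which was not called. KDM6B was called higher in CHLA20 (0.46 ± 0.078), NB1643 (0.72 ± 0.079) and NB1691 (0.48 ± 0.08), and its 0.20 ± 0.077 in CHLA15 was not called.

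**Figure D2:**
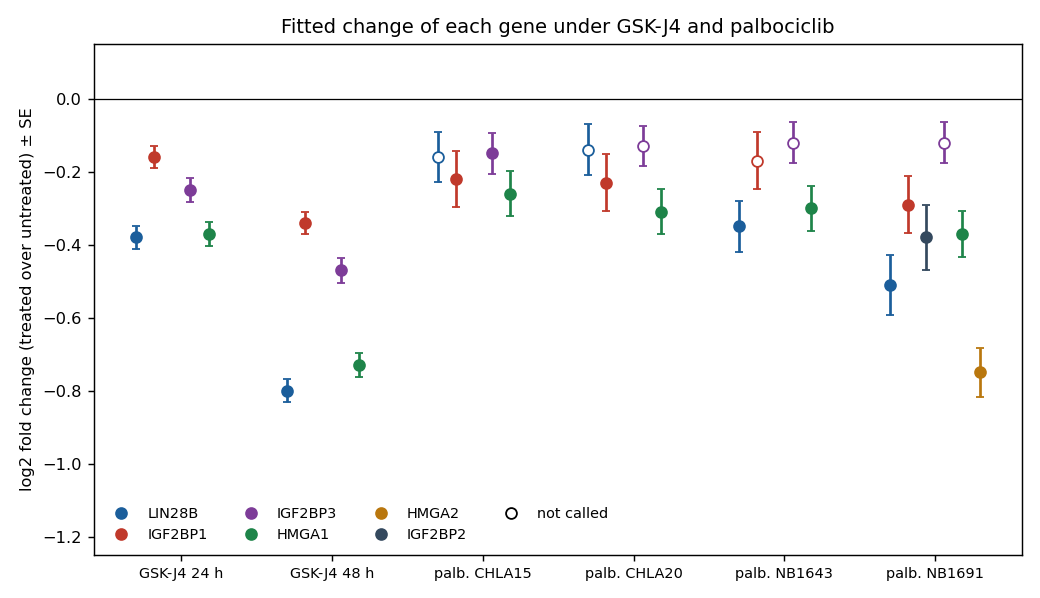
Fitted log2 fold change, treated over untreated, with its standard error (y axis), for GSK-J4 in BE2C against 0 h and for palbociclib in each line. Filled points were called, open points were not, and IGF2BP2 and HMGA2 are drawn only in NB1691. Every point lies below 0, and the lowest is LIN28B at 48 h of GSK-J4 at -0.80.

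The other let-7 pathway genes did not move one way with palbociclib. Beside the counts that follow, 14.2% of all genes were called higher in CHLA15, 13.7% in CHLA20, 20.3% in NB1643 and 17.4% in NB1691. Of 15 microRNA processing genes, 4 were called higher and 2 lower in CHLA15, 1 and 1 in CHLA20, 3 and 3 in NB1643, and 1 and 4 in NB1691. PRKRA, which encodes a partner of DICER1, was among those lower in each line. Of 21 further let-7 targets, 6 were higher and 2 lower in CHLA15, 3 and 5 in CHLA20, 5 and 10 in NB1643, and 7 and 6 in NB1691, with median log2 changes of 0.05, -0.01, -0.23 and -0.17. CCND1, the cyclin D1 gene, rose in all 4 lines, as in CHLA15 from 1055 and 998 to 2099 and 2043 CPM (1.01 ± 0.05, adjusted p = 8.9e-11). E2F2 fell from 17.3 and 14.8 to 1.06 and 1.39 CPM in NB1643 (-3.74 ± 0.13, adjusted p = 2.2e-14).

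Of the 6 client RNAs of IGF2BP proteins, 2 were higher and 3 lower in CHLA15, 0 and 3 in CHLA20, 1 and 4 in NB1643, and 2 and 3 in NB1691. IGF2, the growth factor gene that gave the family its name, went from 32.2 and 16 to 6.04 and 5.58 CPM in CHLA20 (-2.06 ± 0.2, adjusted p = 3.5e-07). GPC3, another oncofetal gene, fell from 2.72 and 3.38 to 0.905 and 1.06 CPM in the same line (-1.62 ± 0.15, adjusted p = 1.6e-07). AURKA, the mitotic kinase that LIN28B is known to raise through RAN, fell from 35.3 and 35.6 to 5.39 and 6.03 CPM in NB1643 (-2.64 ± 0.079, adjusted p = 4e-15). Of the let-7 targets, THBS1 rose from 494 and 475 to 1289 and 1261 CPM in NB1691 (1.40 ± 0.078, adjusted p = 8e-11). Beside these values, 10 of 12 adrenergic markers were called higher in NB1643, 8 in NB1691 and 5 in CHLA20, with none lower, and 5 were higher and 3 lower in CHLA15, and the part of that shift in the falls was not tested.

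GSK-J4 was given to BE2C to ask what follows when KDM6 enzymes are inhibited. LIN28B, HMGA1, IGF2BP3 and IGF2BP1 were each lower at 24 h than at 0 h and lower again at 48 h. All 4 were called in each of these steps, where 28.0% of all genes were called lower at 24 h against 0 h, 34.4% at 48 h against 0 h, and 28.0% at 48 h against 24 h. In that last step 48.1% of all calls were higher (58.1% with upper-quartile scaling). Their median log2 change was -0.31 at 24 h and -0.60 at 48 h against 0 h, beside a median over all tested genes of 0.01 and 0.05. Time in culture and exposure to GSK-J4 cannot be told apart in this series of times.

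LIN28B was 338 and 315 CPM at 0 h, 250.1 and 251 at 24 h, and 189 and 185 at 48 h. The times did not overlap. It fell by 23.3% at 24 h (-0.38 ± 0.031 log2, adjusted p = 6.7e-15) and by 42.7% at 48 h (-0.80 ± 0.031, adjusted p = 5.5e-27), and 11% of tested genes had a lower log2 change at 48 h. MYCN, in the same libraries, was 3004 and 3027 CPM at 0 h, 1669 and 1717 at 24 h, and 1467 and 1433 at 48 h. Its log2 change was -0.83 ± 0.026 at 24 h and -0.22 ± 0.026 from 24 h to 48 h, whereas LIN28B changed by -0.38 ± 0.031 and then by -0.42 ± 0.031. KDM6B, which encodes a demethylase that GSK-J4 inhibits, went from 7.42 and 8.16 CPM at 0 h to 16.1 and 16.6 at 24 h and 23.7 and 22.8 at 48 h (1.58 ± 0.073 log2, adjusted p = 6.8e-24).

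HMGA1 was 244 and 254 CPM at 0 h, 185 and 201 at 24 h, and 149 and 151 at 48 h, a log2 change of -0.73 ± 0.033 by 48 h (adjusted p = 2.4e-24). IGF2BP3 was 119 and 119.8 CPM at 0 h, 101 and 99.7 at 24 h, and 88.1 and 83.7 at 48 h (-0.47 ± 0.034 by 48 h, adjusted p = 8.6e-17). IGF2BP1 changed least, from 265 and 274 CPM at 0 h to 237 and 244 at 24 h and 216 and 210.1 at 48 h (-0.34 ± 0.03, adjusted p = 5e-14). For each of the 3 genes no library of one time overlapped with another time. At 48 h, 12.6%, 21.6% and 28.3% of tested genes had a lower log2 change than HMGA1, IGF2BP3 and IGF2BP1.

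**Figure D3:**
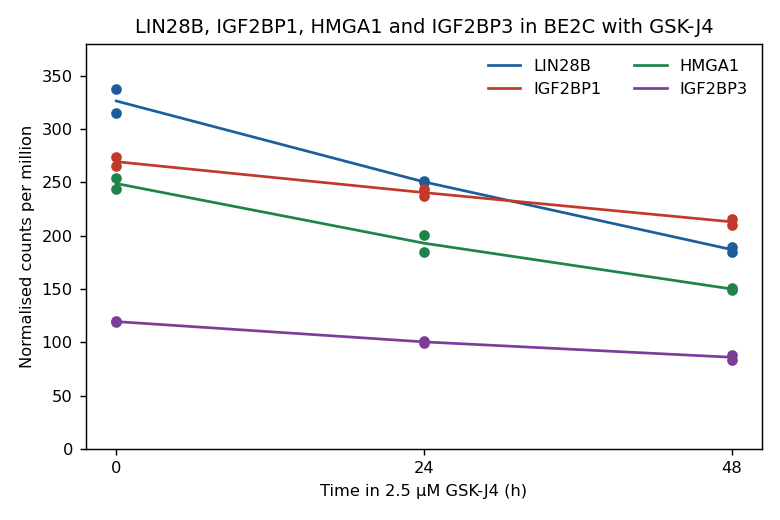
Normalized CPM (y axis) of LIN28B, IGF2BP1, HMGA1 and IGF2BP3 in BE2C at 0, 24 and 48 h of 2.5 µM GSK-J4 (x axis), with points for the 2 libraries at each time and lines through their means. All 4 genes descend at each step, and LIN28B goes from 338 and 315 to 189 and 185 CPM.

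In the rest of the pathway the direction was mixed. Of 15 microRNA processing genes, 8 were called higher and 7 lower at 48 h against 0 h, where 37.1% of all genes were called higher. The higher were the 4 Argonaute genes AGO1 to AGO4, DICER1, DDX17, TNRC6B and TNRC6C. The lower were DROSHA, DGCR8, DDX5, XPO5, TARBP2, PRKRA and TNRC6A, so the genes did not divide by processing step. Of the 4 LIN28 partners, ZCCHC11, ZCCHC6 and TRIM25, which tail the let-7 precursor or help to, were higher and the exonuclease gene DIS3L2 was lower. Of 20 other let-7 targets tested, 10 were higher and 9 lower, with a median log2 change of 0.11. RAN and AURKA were both lower, and AURKA went from 134 and 135 to 44.2 and 44.8 CPM (-1.59 ± 0.038, adjusted p = 2.9e-35).

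The IGF2BP clients included genes that rose while IGF2BP1 and IGF2BP3 fell. IGF2 went from 175 and 175 CPM at 0 h to 422 and 451 at 24 h (1.32 ± 0.031, adjusted p = 1.5e-34) and to 746 and 717 at 48 h. H19, its neighbour, went from 0.442 and 0.338 to 3.37 and 3.38 CPM at 48 h (3.10 ± 0.23, adjusted p = 2.9e-16). CD44 went from 3.7 and 4.36 to 1.54 and 1.87 CPM at 24 h (-1.24 ± 0.16, adjusted p = 1.2e-08). SALL4, another gene of the embryo, went from 14.6 and 14.4 to 3.47 and 4.45 CPM at 48 h (-1.89 ± 0.097, adjusted p = 3.2e-22). MIR100HG, 1 of 3 let-7 host transcripts tested, went from 7.08 and 7.21 CPM at 24 h to 14.9 and 13.6 at 48 h (2.01-fold, adjusted p = 4.5e-15), after a called fall at 24 h. MIRLET7BHG and MIR99AHG were called lower at 24 h too, and MIRLET7BHG was called higher from 24 h to 48 h. At 48 h against 0 h, MIR100HG was called higher, MIR99AHG lower and MIRLET7BHG was not called, with a median log2 change of -0.06. MYC rose from 0.304 and 0.197 to 2.02 and 1.52 CPM (2.82 ± 0.32, adjusted p = 7.5e-11), still far below MYCN. Of 12 adrenergic markers 11 were called lower at 48 h and TH higher. Of 7 mesenchymal markers tested, 4 were higher (FN1, VIM, YAP1 and FOSL2) and 1 lower. All 3 epithelial markers tested were higher, with a median log2 change of 2.26, but from low levels: at 0 h EPCAM was 0.612 CPM, KRT8 0.168 and KRT18 0.0698. The part of these shifts in the falls was not tested.

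KDM6B, the gene the siRNAs were aimed at, was 6.47 and 8.76 CPM in the 2 siCtrl libraries and 8.99, 7.11 and 8.26 under N1, N2 and N33, by their labels. It was not lower in the labelled knockdown libraries (log2 difference 0.09 ± 0.3, adjusted p = 0.95), so directions below are those of libraries by their labels. N1, N2 and N33, with 1 library each, were fitted as 1 group against siCtrl. The SE and p-values of this comparison therefore include differences between the siRNAs, and no single siRNA was tested. None of the 7 genes was called with edgeR (0.00% of all genes were called), none had an unadjusted p under 0.05, and none was called with limma-voom or DESeq2. Over all genes 1615 had an unadjusted p under 0.05, and 0 were called by limma-voom and 157 by DESeq2.

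The members went different ways in the 3 siRNA libraries. LIN28B was 493 and 467 CPM in siCtrl and 305, 410.1 and 567 in N1, N2 and N33. It was thus below both controls in N1 and N2 and above both in N33. MYCN was 1742, 1736 and 466 CPM in N1, N2 and N33 against 1596 and 1613 in siCtrl. Reads on no annotated feature made up 16.8%, 16.1% and 13% in N1, N2 and N33, and 12.5% and 12.7% in siCtrl. The part of that difference in these levels was not tested. IGF2BP1 was 169.7 and 192 CPM in siCtrl and 126, 175 and 93.1 in N1, N2 and N33. HMGA1 was 179.8 and 207 CPM in siCtrl and 203, 135 and 114 in N1, N2 and N33, and IGF2BP3 was 155 and 152 against 161, 162 and 154. IGF2BP3 varied least. With the 3 siRNAs fitted as 1 group, the log2 differences were -0.17 ± 0.29 for LIN28B, -0.46 ± 0.3 for IGF2BP1, -0.36 ± 0.29 for HMGA1 and 0.05 ± 0.19 for IGF2BP3. Their adjusted p ran from 0.67 to 0.95. Without the N1 library the LIN28B difference was 0.03.

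**Figure D4:**
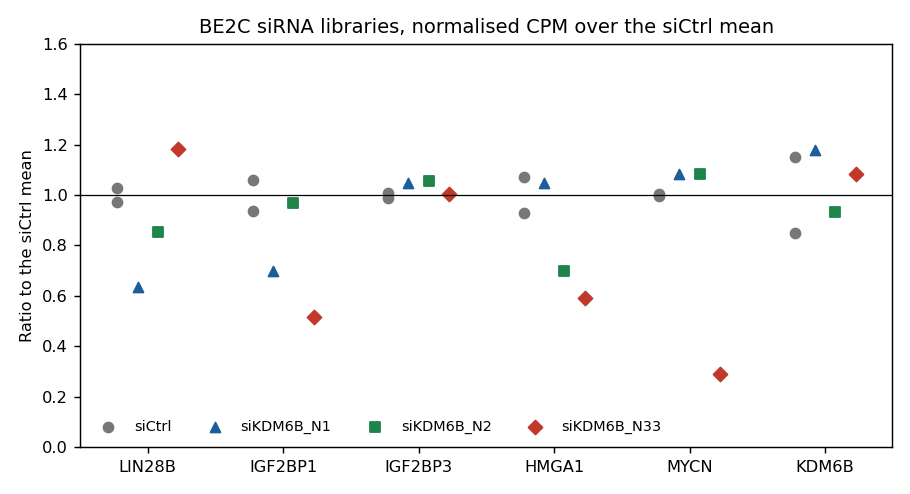
Ratio of each BE2C siRNA library to the mean of the 2 siCtrl libraries (y axis, linear from 0) for 4 of the genes and for MYCN and KDM6B. N33 has the lowest MYCN, IGF2BP1 and HMGA1 and the highest LIN28B, at a ratio of 1.18, and no KDM6B point lies far below 1.

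Rows that overlap or copy these genes were small. LIN28B-AS1, antisense to LIN28B, held 10 to 184 counts, and RPSAP52, which overlaps HMGA2, held up to 70. Since strandedness was not stated, reads of such a pair cannot be assigned. The 8 HMGA1 pseudogenes held at most 34 counts in any library, against at least 5301 for HMGA1, and reads shared with a copy cannot be assigned either.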

How the data were processed

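RNA-seq of human neuroblastoma lines was deposited by the authors as raw counts per gene symbol and file, made with STAR 2.5.3a and HTSeq on GRCh37 per the labels and methods. The methods name a mouse Gencode release for this step, while the symbols are human. The label's extraction text speaks of xenograft tissue and its source field of cell lines. From these counts, 2 files were summed per BE2C library. For GSK-J4 and siCtrl they share a library number in the labels. For each KDM6B siRNA they carry only the numbers 1 and 2, and whether these are runs or replicates is not stated. Files summed differed by a chi-square per degree of freedom of 1.48 to 1.65, against 1.89 to 4.33 between replicates of BE2C.

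Each experiment was fitted separately with edgeR 4.0.16 (TMM, filterByExpr, quasi-likelihood F test, Benjamini-Hochberg over all tested genes: 17734 for GSK-J4, 17472 for siRNA and 22133 for palbociclib). For siRNA, the libraries of N1, N2 and N33 formed 1 group. SE is the absolute log2 fold change over the root of F. limma 3.58.1 and DESeq2 1.42.0 served as alternatives. Scripts were tested on simulated data. Floors cover counting error only, while the SE includes the spread between libraries. The members and lists were chosen with earlier results of these data known. Named genes other than the 7 were at most the 2 highest and 2 lowest called, non-overlapping list genes of at least 1 mean CPM per comparison, plus MYCN and KDM6B as checks; list and marker genes named otherwise, neighbours and MYC were chosen after their values were seen. Likeness used log2(CPM + 0.5).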

Additional observations from a re-analysis of the deposited data

Results flagged for a closer look

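The palbociclib change of LIN28B differed between the 4 lines (adjusted p = 0.024, edgeR, 3 degrees of freedom), with log2 changes of -0.16 in CHLA15, -0.14 in CHLA20, -0.35 in NB1643 and -0.51 in NB1691. The lower 2 values come from the lines given 3 µM and the others from those given 300 nM, so line and dose cannot be told apart. Of all genes tested, 38.0% were called in this test. The LIN28B call was lost with upper-quartile scaling (adjusted p = 0.071, edgeR) and, as given above, without single libraries. No pair of lines at the same dose was called for LIN28B.

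The palbociclib change of HMGA2 differed between NB1691 and NB1643 (adjusted p = 0.044, edgeR), but NB1643 held only 0 or 2 counts of HMGA2 in each library, at or under the floor of 3 counts.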

How the results depend on the processing

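All 4 members tested with GSK-J4 were called lower at each step under every alternative, and all 6 tested across untreated lines stayed called. In the test across untreated lines, 91.2% of all genes were called in the main fit, and IGF2BP2 and HMGA2 had to differ by the filter, so that count says little about the members. Upper-quartile scaling shifted the median of all genes by 0.11 at 48 h of GSK-J4 against 0 h and by -0.12, -0.11 and -0.19 for NB1691 against CHLA15, CHLA20 and NB1643, and turned no direction there, though IGF2BP1 in NB1691 against CHLA15 (-0.20, adjusted p = 0.034), IGF2BP3 in NB1691 against NB1643 (-0.24, 0.00067) and HMGA1 in NB1643 against CHLA20 (0.21, 0.0036) became called. For palbociclib, DESeq2 called 1 member in CHLA15 in place of 3, and upper-quartile scaling called 0 in place of 1 in the test by line. Leaving out 1 library gave 1 to 4 members in CHLA15, 1 to 3 in CHLA20, 2 to 3 in NB1643, 3 to 5 in NB1691, 0 to 2 in the test by line and 0 to 1 for NB1691 against NB1643; a lone library was assumed to vary like the others. In NB1643, limma-voom and some of the fits with 1 library left out added HMGA2, which was higher with palbociclib at 0 and 2 counts. Fitting only the libraries of the line with edgeR called LIN28B in CHLA15 (adjusted p = 0.039) and IGF2BP3 in NB1691 (0.0045). DESeq2 gave IGF2BP2 in NB1691 a log2 change of -0.37 with an adjusted p of 0.83, and without the filter on low counts the IGF2BP1 difference in NB1643 was called (adjusted p = 0.029) and the IGF2BP3 call in CHLA15 was lost (0.09). The cause was not tested.

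Some differences changed sign. For CHLA20 against CHLA15 responses, DESeq2 gave -0.00 for IGF2BP3 and -0.01 for LIN28B, upper-quartile scaling 0.01 for IGF2BP1, and leaving out 1 library -0.09 to 0.12 for LIN28B, -0.05 to 0.07 for IGF2BP3, up to 0.06 for IGF2BP1 and -0.16 to 0.05 for HMGA1. For NB1691 against NB1643 responses, IGF2BP3 was -0.02 with DESeq2, -0.00 with limma-voom, -0.01 without the filter and -0.01 with upper-quartile scaling, and -0.04 to 0.08 without 1 library, while HMGA1 reached 0.00 and IGF2BP1 ran from -0.28 (called without the first NB1643 control, adjusted p = 0.012) to 0.09. Without 1 library, LIN28B with siRNA ran from -0.42 to 0.03 (without N1), and IGF2BP1 with palbociclib in NB1643 from -0.35 to 0.02. For untreated CHLA20 against CHLA15, HMGA1 ran from -0.06 to 0.15 and IGF2BP1 from -0.13 to 0.02 without 1 library.

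Replicate numbers only name libraries: deviations of same-numbered libraries correlated at -0.121 to 0.0876. With the replicate block, the GSK-J4 counts stayed at 4, and CHLA15 had 4 members in place of 3 (LIN28B, edgeR adjusted p = 0.03). NB1643 had 3 in place of 2 through HMGA2, which was called higher, at 0 counts untreated and 2 treated. HMGA1 was called in untreated NB1643 against CHLA20 (0.24, edgeR adjusted p = 0.005). HMGA1 and IGF2BP1 in untreated CHLA20 against CHLA15 were -0.07 and 0.00. No paired analysis was possible for the siRNAs because each had 1 library after its 2 files were summed, and whether the file numbers mark runs or replicates is not stated. Each deposited file as a sample called 2354 genes with siRNA, and fitting without the filter 84, but no member in either. Members at a few counts, as LIN28A in all lines, could not be compared at this depth.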

Other observations

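HMGA2 lies on chromosome 12 between CDK4 (chr12:58141510-58149796) and MDM2 (chr12:69201957-69239324, GRCh37). These genes were looked up after the HMGA2 values were seen. In untreated NB1691, CDK4 was 5746 CPM and MDM2 6965 CPM, against 224 to 267 and 62.7 to 77.7 CPM in the other 3 lines. MSRB3, the nearest listed gene before HMGA2, was 108 CPM in NB1691 and at most 0.19 CPM elsewhere. IRAK3, on the other side, was 5.95 CPM against at most 0.319. Other genes near HMGA2 lay closer together between lines or were lower in NB1691: LEMD3 was 43.4 CPM against 16.5 to 30.9, LLPH 29.9 against 14.9 to 27.7, and TBC1D30 3.63 against 56.4 to 73.6. Around IGF2BP2 on chromosome 3, SENP2 was 107 CPM in NB1691 against 48 to 68.1, and TRA2B was 203 against 208 to 283. Beside LIN28B on chromosome 6 the listed genes were mixed. HACE1 was 30.5 CPM in NB1691 against 29 to 32.4, BVES 40.7 against 23 to 53.8, and POPDC3 28.2 against 10.6 to 35.7. PREP was lower, at 75.5 against 103 to 107. ATG5 was higher, at 79.3 against 22.7 to 25.7, as was PRDM1, at 4.05 against at most 0.00959. Whether copy number bears on any of these levels was not tested.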
